A study of Mus musculus with 4 samples.

Results

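Acan, Hapln1, Col9a1, Col9a2, Col9a3, Matn1, Matn4, Cnmd and Snorc encode proteins of the cartilage matrix, and their levels were read in single cells of the whole mouse nose at embryonic day 14.5. They were chosen by symbol as genes of the cartilage matrix, and they are 9 of the 32285 genes counted. All 9 were found in the 13739 cells that passed a minimum of 500 genes and a maximum of 10% of UMIs from mitochondria. A UMI stands for 1 captured RNA molecule, and levels are in CPM, the UMIs of a gene per 1000000 UMIs of all cells of a class in a library.

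Cartilage is built by chondrocytes, which embed themselves in a mesh of type II collagen fibrils filled with the proteoglycan aggrecan. Sox9, with Sox5 and Sox6, switches this programme on in condensing mesenchyme, which in the face comes largely from the neural crest. The nasal capsule and septum of the embryo are hyaline cartilage of this kind, and bone of the face forms beside them from osteoblasts that arise in the same mesenchyme.

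The study compared 2 control libraries, titled WT, with 2 mutant libraries, titled Sox10Cre/Yap/Taz cKO. The mutant labels name the Cre allele Tg(Sox10-cre)1Wdr together with Yapflox and Tazflox on a C57Bl/6J background, and the series design gives 1 floxed and 1 wild-type Yap allele with both Taz alleles floxed. The controls are C57Bl/6J in the sample labels but carry both floxed genes without Cre in the series design, so the genotype of the controls is not settled and groups are named by title. Cre is expected only in cells with a history of Sox10 transcription, which marks neural crest cells, and the labels name 2 noses of each genotype without saying how they map to libraries. P-values therefore measure only the spread between these libraries, which may be technical.

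The libraries held 2474 to 4195 retained cells each, at a median of 5282 to 8549 UMIs per cell, and any pair of libraries shared 3 to 5 cell barcodes. Yap1 stood at 65.0 and 65.2 CPM over all cells of the controls and at 56.4 and 56.0 CPM in the mutants. Wwtr1, the gene of Taz, stood at 118 and 145 CPM against 123 and 132 CPM. In chondrocytes Yap1 was at 60.6 and 84.6 CPM in controls, and the mutants had 46.2 and 40.6 CPM (log2 change -0.73 ± 0.43, SE, n = 2 against 2 libraries, edgeR adjusted p = 0.998). Reads from the transcript's end need not fall in the deleted part, so these counts do not check the deletion. Preparation and sequencing were done by 2 providers that the labels do not tie to libraries, so provider and genotype cannot be told apart.

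Each member has its own place in the matrix. Acan (aggrecan, ENSMUSG00000030607, chromosome 7, 79053483 to 79115099, plus strand) is the large proteoglycan whose chondroitin sulfate chains hold water, and Hapln1 (link protein, chromosome 13, 89539796 to 89611652, plus strand) fastens it to hyaluronan. Col9a1 (chromosome 1, 24177610 to 24252684, plus), Col9a2 (chromosome 4, 121039385 to 121055322, plus) and Col9a3 (chromosome 2, 180597790 to 180622189, plus) encode the chains of type IX collagen, which sits on the surface of the type II fibrils. Matn1 (chromosome 4, 130944385 to 130955475, plus) and Matn4 (chromosome 2, 164389393 to 164405160, minus) are matrilins, adaptor proteins that bridge collagen fibrils and proteoglycans. Cnmd (chondromodulin, chromosome 14, 79637690 to 79662170, minus) is a membrane glycoprotein whose shed part inhibits vessel growth into cartilage, and Snorc (chromosome 1, 87470271 to 87475482, plus) is a small transmembrane proteoglycan of chondrocytes. Positions are those of GENCODE on GRCm38, all 9 are protein-coding, and each span covers the whole gene from first to last exon. Col9a3 overlaps Tcfl5 and Matn4 overlaps Rbpjl on the opposite strand, and whether the counting kept strands apart is not given in the sources used here.

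Sequence before the start sites is shown for Col9a1, whose upstream start is the one known from cartilage and whose downstream start is known from the eye, for Col9a2, and for Matn1, the member most restricted to chondrocytes below. The windows are the 250 bases before a RefSeq start (GRCm38.p6), written along the gene's strand, and capitals mark a 7-base match to a SOX-type motif. The 8 motifs, searched on both strands, begin with AA, AT, TA or TT and end with CAAAG or CAATG, and none is the reverse complement of another.
Col9a1, upstream start, chr1:24177360-24177609, plus strand: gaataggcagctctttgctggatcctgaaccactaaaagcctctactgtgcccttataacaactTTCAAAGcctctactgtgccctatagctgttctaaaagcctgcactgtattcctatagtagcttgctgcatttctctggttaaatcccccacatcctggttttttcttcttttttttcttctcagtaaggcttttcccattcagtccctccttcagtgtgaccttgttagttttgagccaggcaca
Col9a1, downstream start, chr1:24194953-24195202, plus strand: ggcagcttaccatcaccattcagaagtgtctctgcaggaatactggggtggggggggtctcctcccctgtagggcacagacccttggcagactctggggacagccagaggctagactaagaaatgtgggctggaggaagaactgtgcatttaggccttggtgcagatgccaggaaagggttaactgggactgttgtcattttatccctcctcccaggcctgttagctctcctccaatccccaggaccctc
Col9a2, chr4:121039316-121039565, plus strand: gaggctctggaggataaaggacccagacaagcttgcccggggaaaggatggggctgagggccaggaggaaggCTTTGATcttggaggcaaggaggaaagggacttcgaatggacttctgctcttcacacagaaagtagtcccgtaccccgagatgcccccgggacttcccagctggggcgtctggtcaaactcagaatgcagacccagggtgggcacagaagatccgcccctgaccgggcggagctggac
Matn1, chr4:130944135-130944384, plus strand: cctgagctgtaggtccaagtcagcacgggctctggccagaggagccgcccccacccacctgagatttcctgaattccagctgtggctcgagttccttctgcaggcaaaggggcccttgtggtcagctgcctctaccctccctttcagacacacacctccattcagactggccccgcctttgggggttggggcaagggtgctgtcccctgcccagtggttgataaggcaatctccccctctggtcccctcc
The upstream Col9a1 window held 1 match, TTCAAAG, starting at base 65, and the Col9a2 window held 1 match to ATCAAAG on the other strand, starting at base 73. The Col9a2 window crosses the GENCODE start of that gene, at 121039385, and its match lies just past it. RefSeq and GENCODE thus differ there, and the match is upstream only by RefSeq. The downstream Col9a1 window and the Matn1 window held none. Over all 9 windows found for 7 members, 2 held a match, against 21.8% of 32851 windows of the same length, so the members' windows held the motif at about the share of all promoters. Counts of transcript ends do not tell which Col9a1 start was used.

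Cells were classed by marker genes that exclude the members. A chondrocyte had at least 16 Col2a1 UMIs per 10000 and at least 3 of Sox9, Sox5, Sox6, Col11a2, Wwp2 and Mia. This gave 152 cells, with 55 and 23 from control 1 and control 2 and with 15 and 59 from mutant 1 and mutant 2. Cells with the same markers but Col2a1 between 4 and 16 UMIs per 10000 formed a class of 180 called Col2a1-intermediate, a range and not a cell type. The osteoblast lineage, defined by Runx2 with further bone markers such as Sp7 and Alpl, held 787 cells, and mesenchyme, defined by fibroblast genes such as Pdgfra, Prrx1 and Col1a2, held 9378. Mesenchyme was also limited to cells with under 4 Col2a1 UMIs per 10000, whereas the osteoblast lineage had no Col2a1 limit, and 30 of its cells lay at or above 4. Mesenchymal levels and the ratios to them rest on that limit. Near the Col2a1 threshold, 42 chondrocytes lay within 2 times above it and 76 intermediate cells within 2 times below it. All 7 chondrocyte markers were detected in the class, which the gate itself favours. Its summed mesenchymal markers were at 2976, 5565, 2844 and 4517 CPM in control 1, control 2, mutant 1 and mutant 2. The summed osteoblast markers were at 200, 209, 154 and 509 CPM in the same order, and the bone gene Ibsp at 2.63, 0, 0 and 325 CPM. Cells with the highest doublet scores, kept here, numbered 0, 0, 0 and 5. A further 18 unassigned cells and 21 cells of other classes passed the Col2a1 threshold, and 14 of the latter were endothelial cells of mutant 2. Chondrocytes were 1.35% and 0.930% of control cells and 0.501% and 1.41% of mutant cells, with exact 95% binomial intervals of 1.02% to 1.75%, 0.590% to 1.39%, 0.281% to 0.825% and 1.07% to 1.81%. The mean difference was -0.186 percentage points (two-sided exact permutation test, p = 1, with 0.33 the smallest p that 2 against 2 allows), and the highest and lowest shares were both mutant.

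All 9 genes stood higher in chondrocytes than in any other class, and they differed mainly in how much remained outside. Against the Col2a1-intermediate cells the chondrocyte mean was only 3.98 times higher for Matn4 and 6.18 times for Col9a1, but 115 times for Matn1. Matn1, the matrilin of mature hyaline cartilage, was at 2802, 603, 2312 and 2915 CPM in the chondrocytes of control 1, control 2, mutant 1 and mutant 2. In mesenchyme Matn1 was at 1.64, 0.312, 0.660 and 1.99 CPM, so that the mean was 1874 times higher in chondrocytes. Snorc was at 485, 107, 778 and 674 CPM in chondrocytes and between 0.22 and 0.836 CPM in mesenchyme, where only 33 UMIs were counted in all. Both genes were close to absent from mesenchyme in every library.

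Acan, the aggrecan gene, was at 1346, 491, 1487 and 1259 CPM in chondrocytes of control 1, control 2, mutant 1 and mutant 2, and at 4.60 to 7.70 CPM in mesenchyme. Its partner Hapln1 was at 2220.2, 1212, 1742 and 1713 CPM in chondrocytes and at 6.66 to 9.42 CPM in mesenchyme. Cnmd was at 1612, 659.7, 1587 and 1269 CPM against 2.51 to 3.14 CPM. The ratio of means between the classes was 188 for Acan, 202 for Hapln1 and 436 for Cnmd, and no library overlapped between the classes.

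The type IX collagen chains differed among themselves outside cartilage. Col9a1 was at 2259.7, 1443, 2073 and 2252 CPM in chondrocytes and 9.04 to 11.2 CPM in mesenchyme, a ratio of means of 192. Col9a3 was at 3589.7, 1618, 3221 and 3981 CPM in chondrocytes and 7.56 to 15.3 CPM in mesenchyme, a ratio of 257. Col9a2 was at 1862, 705, 1449 and 1884 CPM in chondrocytes but at 28.4, 16.4, 25.1 and 30.5 CPM in mesenchyme, so its ratio was 58.7, with 43.0 to 65.5 over the libraries. Col9a2 thus had a lower ratio than either partner chain, each gene being compared with itself.

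Matn4, another matrilin, was at 1193, 716, 1110 and 1137 CPM in chondrocytes and at 14.9, 10.1, 13.0 and 18.5 CPM in mesenchyme, a ratio of means of 73.5, with 61.3 to 85.5 over the libraries. Among the matrilins the ratio was thus 1874 for Matn1 and 73.5 for Matn4. A ratio is a lower bound where the mesenchymal UMIs are free RNA. With no Col2a1 limit on mesenchyme, which gave 9618 cells and was tried after the values were seen, the ratio was 52.3 for Col9a2, 52.4 for Matn4, 116 for Col9a1 and 234 for Cnmd. It was then 1517 for Matn1. These ratios compare a gene with itself, since UMI counts of different genes are not on a common scale of capture.

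**Figure D1:**
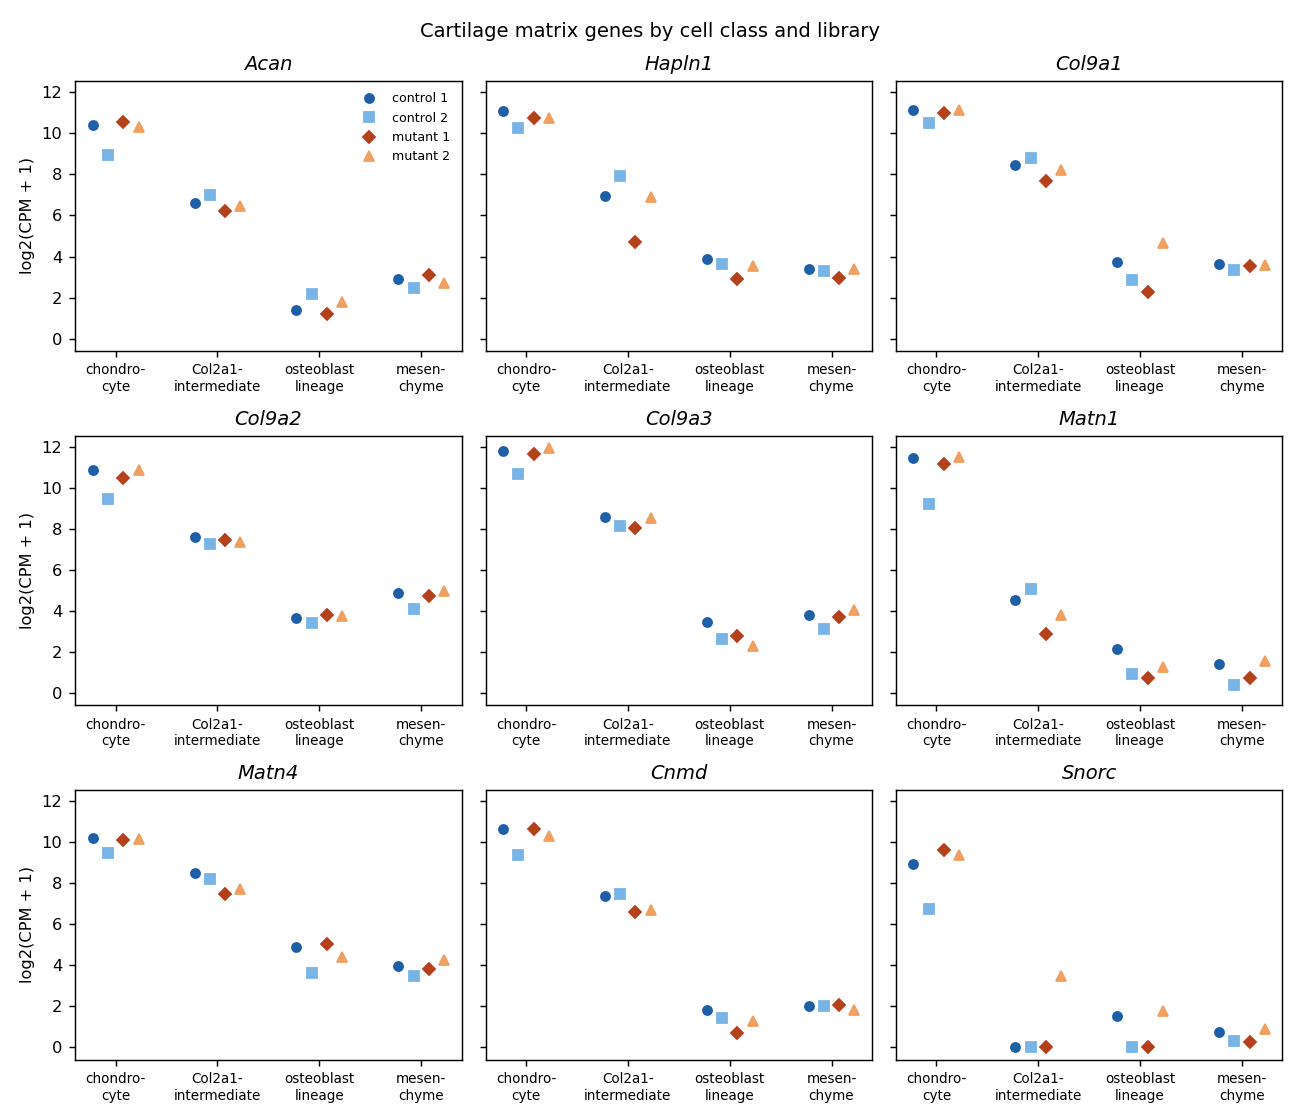
Level of each gene (log2 of CPM + 1, vertical axis) in 4 cell classes (horizontal axis), with 1 point per library, blue for controls and orange to red for mutants. Chondrocytes are highest in all 9 panels, control 2 is the lowest chondrocyte point throughout, and Matn1 and Snorc lie close to 0 in mesenchyme and the osteoblast lineage while Col9a2 and Matn4 do not.

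Because chondrocytes were only 152 of 13739 cells, the other classes still held many of the UMIs. Of all Matn1 UMIs, 88.3% lay in chondrocytes, and of all Snorc UMIs 79.9%. For Cnmd, Acan, Col9a3, Hapln1 and Col9a1 the share was 67.0%, 62.7%, 61.2%, 60.9% and 54.8%. Only 40.2% of Col9a2 UMIs lay in chondrocytes, and 39.3% lay in mesenchyme. For Matn4 the same shares were 36.9% and 30.2%. A large part of the Col9a2 and Matn4 UMIs of the whole nose thus lay outside the gated chondrocytes. How much of that part was free RNA was not tested.

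The genes also differed in how steeply they followed Col2a1, the type II collagen gene. The 9710 chondrocytes, intermediate and mesenchymal cells of all libraries were split into bands of Col2a1, and each gene's level was set against its level in the band of 64 or more Col2a1 UMIs per 10000, which held 80 chondrocytes. In the band from 4 to 16, Matn4 was at 19.2% of its top level and Col9a1 at 10.3%. Col9a2, Cnmd, Col9a3, Acan and Hapln1 were between 4.60% and 6.83%, close to Col2a1 itself at 6.17%. Matn1 was at 0.453% and Snorc at 0.295% of the top level in that band. In the band from 16 to 64, Matn1 had 18.6% and Snorc 17.3% of the top level, while Matn4 had 53.3%. Matn4 and Col9a1 were thus present in these cells at lower Col2a1, where Matn1 and Snorc were near 0. The bands pool cells of 4 libraries, so this order is a description with no test.

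**Figure D2:**
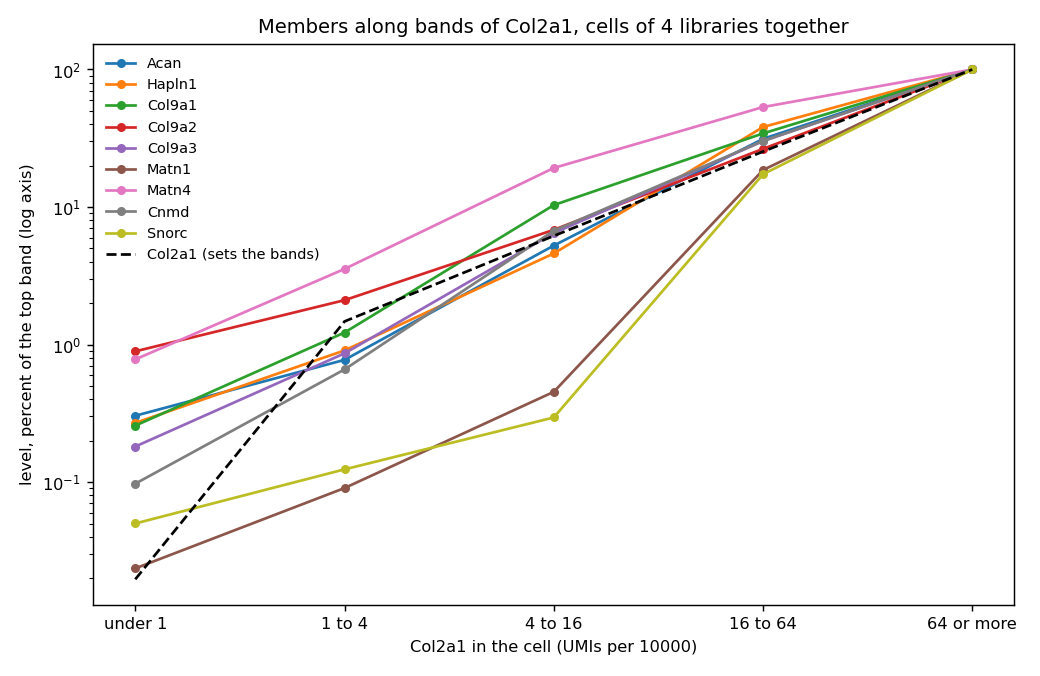
Level of each member in 5 bands of Col2a1 (horizontal axis, UMIs per 10000), as a percentage of its level in the top band (vertical log axis), with Col2a1, which sets the bands, dashed. Matn1 and Snorc lie under all others at 4 to 16, at 0.453% and 0.295%, and Matn4 lies above them at 19.2%.

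Within single chondrocytes the genes were mostly found together. After each cell was thinned to 3000 UMIs, which left 121 of the 152 chondrocytes, a chondrocyte held UMIs of a median of 8 of the 9 genes. All 9 were found in 28.9% of them, and at least 6 in 76.9%. The median was 8 in control 1, mutant 1 and mutant 2 and 7 in control 2, where no cell held all 9. In mesenchyme the median was 0, with 82.5% of thinned cells holding none, and in the osteoblast lineage 82.9% held none. Intermediate cells held a median of 3.

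Pairs of genes were compared over the thinned chondrocytes of the 2 libraries with most of them, 40 cells in control 1 and 47 in mutant 2, on log2(UMIs + 1). Acan and Matn1 rose and fell together over cells, with Pearson r of 0.81 in control 1 and 0.76 in mutant 2. Matn1 followed Col2a1 at 0.80 and 0.79. Matn4 followed Acan at 0.03 in control 1 and 0.50 in mutant 2, and Cnmd at 0.09 and 0.33. Cells of a library share its depth and preparation, so these values are descriptions.

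Outside the cartilage the members were compared between the osteoblast lineage and mesenchyme, a contrast that the choice by symbol did not use. Acan, Col9a2 and Col9a3 were lower in the osteoblast lineage and Matn4 was higher, each in 4 of 4 libraries. In this fit, with library as a block, 4442 of 14030 genes differed at an adjusted p under 0.05, or 31.7%, with 16.5% higher and 15.2% lower in the osteoblast lineage. Against that background 4 of the 8 members tested differed, 1 higher and 3 lower, and Snorc had too few counts to be tested. Since only mesenchyme had a Col2a1 limit, the fit was repeated with the limit in both classes and with it in neither, both chosen after seeing the data.

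Col9a2 was at 11.7, 9.61, 12.9 and 12.4 CPM in the osteoblast lineage of control 1, control 2, mutant 1 and mutant 2, under its mesenchymal range of 16.4 to 30.5 CPM. The log2 difference, osteoblast lineage over mesenchyme, was -1.02 ± 0.15 (SE, 4 libraries in each class, edgeR adjusted p = 0.000127, and 2.04e-09 to 0.00582 over all settings tried). Acan was at 1.59, 3.49, 1.29 and 2.39 CPM, from 16 UMIs in all, with a log2 difference of -1.46 ± 0.35 (SE, edgeR adjusted p = 0.00627, range 0.000135 to 0.0649). The Acan call was lost without control 1 (-1.25, edgeR adjusted p = 0.0649). Both genes were lower in every library, but Acan rests on few molecules.

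Col9a3 was at 9.84, 5.24, 5.82 and 3.82 CPM, with a log2 difference of -0.80 ± 0.25 (SE, edgeR adjusted p = 0.0245, range 0.000306 to 0.18). Its call was lost without mutant 2 (-0.51, edgeR adjusted p = 0.18) and in a fit with no library block (-0.74, edgeR adjusted p = 0.0947). Matn4 was at 28.6, 11.4, 31.7 and 20.5 CPM, with a log2 difference of 0.85 ± 0.18 (SE, edgeR adjusted p = 0.00289, range 2.06e-06 to 0.185). The Matn4 call held with the Col2a1 limit in both classes (0.84, edgeR adjusted p = 0.00383) but was lost with no limit in mesenchyme (0.35, edgeR adjusted p = 0.185). Hapln1 (0.44 ± 0.19), Col9a1 (0.31 ± 0.29), Matn1 (0.66 ± 0.48) and Cnmd (-0.65 ± 0.41) did not pass, with edgeR adjusted p of 0.0992, 0.469, 0.342 and 0.259. Cnmd passed as lower with the limit in both classes (-1.74, edgeR adjusted p = 0.0209) and with it in neither (-1.60, edgeR adjusted p = 0.00283), and the latter turned Col9a1 to -0.39 (edgeR adjusted p = 0.313).

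The osteoblast lineage was also read by Sp7, the transcription factor of committed osteoblasts, with 517 cells that had an Sp7 UMI and 270 that had none. Matn4 was at 21.4, 12.0, 32.9 and 13.4 CPM in the former and 47.8, 8.79, 29.0 and 38.1 CPM in the latter, and neither group was higher in all 4 libraries. Col9a1 reached 28.8 CPM in Sp7-positive cells of mutant 2, above 10.9, 5.45 and 3.77 CPM in control 1, control 2 and mutant 1. Differences between these subgroups were not tested.

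Some low values in mesenchyme cannot be read as expression. Free RNA in droplets gives UMIs to cells that lack a gene, and macrophages served as a reference, at a median of 7568 to 10396 UMIs per cell against 4957.5 to 8224 in mesenchyme. A Col9a2 UMI was found in 14.6%, 9.59%, 15.5% and 12.8% of mesenchymal cells and in 0%, 1.56%, 0% and 1.12% of macrophages. Col9a3 was found in 4.43% to 7.27% of mesenchymal cells and 0% to 2.25% of macrophages, and Acan in 2.36% to 4.21% against 0% to 1.12%. Col9a1 was found in 3.85% to 5.07% against 0% to 2.13%. The shares for Hapln1, Matn1, Matn4, Cnmd and Snorc overlapped between mesenchyme and macrophages. For Matn4 they were 4.15% to 5.98% in mesenchyme and 3.13% to 6.74% in macrophages, whose cells were deeper. By CPM, Matn4 in mesenchyme, at 14.9, 10.1, 13.0 and 18.5, lay at or above the 4.55, 4.73, 12.9 and 8.34 of macrophages with under 4 Col2a1 UMIs per 10000. The part of free RNA in mesenchymal Matn4 was not tested. In the osteoblast lineage a Matn4 UMI was found in 9.80% to 14.2% of cells, above the macrophage range.

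The members were then read in 7 other classes, keeping only cells with under 4 Col2a1 UMIs per 10000, a restriction added after the values were seen. Some were found well above 0 there. Hapln1 was at 43.8, 45.4, 20.9 and 34.7 CPM in endothelial cells of control 1, control 2, mutant 1 and mutant 2, and was found in 20.6% to 33.3% of them. In the other 6 classes its mean was at most 8.5 CPM. Hapln1 in endothelium thus stood above its mesenchymal level of 6.66 to 9.42 CPM in every library.

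Matn4 and Cnmd were both seen in glia, the Sox10-positive class. Matn4 was at 70.2, 13.3, 136 and 109 CPM in glia of control 1, control 2, mutant 1 and mutant 2, and Cnmd at 51.0, 6.65, 102 and 59.98 CPM. These values rest on 24 to 49 glial cells per library. Cnmd UMIs came from 8, 2, 7 and 5 cells, so few cells carried them. Control 2 was far below the other libraries for both genes, with 4 and 2 UMIs. Within this Col2a1 limit both mutants were above both controls. Over all glia, with no limit, the groups overlapped for both genes. Matn4 was then at 111 and 13.3 CPM in controls against 136 and 109 CPM in mutants, and Cnmd at 119 and 6.65 against 102 and 59.98 CPM. This overlap rests on 1 cell, since the limit took control 1 from 50 to 49 glial cells and changed no other library. With that cell left out, glial UMIs fell from 117 to 15 for Col2a1, from 110 to 76 for Cnmd and from 39 to 0 for Matn1. No test was run in this class, and the share of all genes with both mutants higher was not counted in it. The size of the order within the limit is decided by 1 control library.

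Col9a2 was at 39.0, 39.2, 29.8 and 67.3 CPM in neurons and at 48.9, 6.65, 52.3 and 43.6 CPM in glia. Col9a3 was at 20.7, 14.1, 19.9 and 18.5 CPM in epithelium and was found in 10.4% to 14.2% of its cells. In glia Col9a3 was at 40.4, 6.65, 31.4 and 27.3 CPM, above epithelium in all libraries but control 2. Col9a1 was at 34.0, 0, 13.1 and 10.9 CPM in glia. In muscle 6 of the 9 genes had no UMI in any library.

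**Figure D3:**
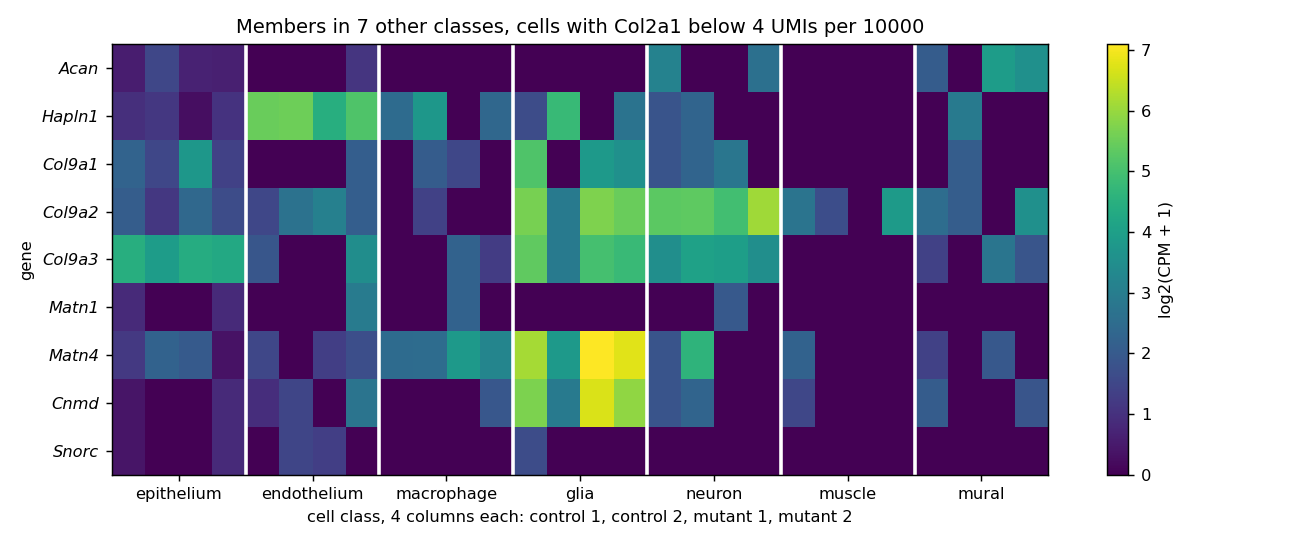
Level of each member (colour, log2 of CPM + 1) in cells of 7 other classes with Col2a1 below 4 UMIs per 10000, with a column per library. Bright cells include Hapln1 in endothelium, Matn4 and Cnmd in glia, Col9a2 in neurons and glia, and Col9a3 in epithelium and glia.

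Between mutant and control chondrocytes no member passed the test. Of 5138 genes tested with edgeR, 0 were called at an adjusted p under 0.05 (0%), 220 had an unadjusted p under 0.05, and DESeq2 also called 0. The fitted log2 change, mutant over control, was above 0 for 8 of the 9 members, with a median of 0.34, against a median of -0.01 over all genes tested. Control 2 was the lowest library for all 9 genes, so its place sets this direction.

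Snorc, the transmembrane proteoglycan, had the largest change of the 9. Controls stood at 485 and 107 CPM and mutants at 778 and 674 CPM, and it was the only member whose groups did not overlap, against 17.2% of tested genes with both mutants higher than both controls. Its log2 change was 1.17 ± 0.41 (SE, n = 2 against 2, edgeR unadjusted p = 0.0108, adjusted p = 0.927). Without the filter on low counts edgeR called Snorc (1.16, adjusted p = 0.0294), and with the replicate number as a block it did too (1.47, adjusted p = 0.00147), while DESeq2 gave 1.26 with an adjusted p of 1.00. Over all settings and left-out libraries it ranged from 0.53 to 2.74.

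Acan had a log2 change of 0.52 ± 0.33 (SE, edgeR adjusted p = 0.998), with mutants at 1487 and 1259 CPM around control 1 at 1346 CPM. Matn1 had 0.58 ± 0.42 (edgeR adjusted p = 0.998), with mutants at 2312 and 2915 CPM on either side of control 1 at 2802 CPM. With the replicate block Matn1 passed the test (0.92, edgeR adjusted p = 0.0354). Hapln1 was at -0.03 ± 0.27, Matn4 at 0.20 ± 0.27, Cnmd at 0.27 ± 0.32, Col9a1 at 0.19 ± 0.24, Col9a2 at 0.34 ± 0.33 and Col9a3 at 0.44 ± 0.29. All 6 had an edgeR adjusted p of 0.998, which does not show that the groups are alike.

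**Figure D4:**
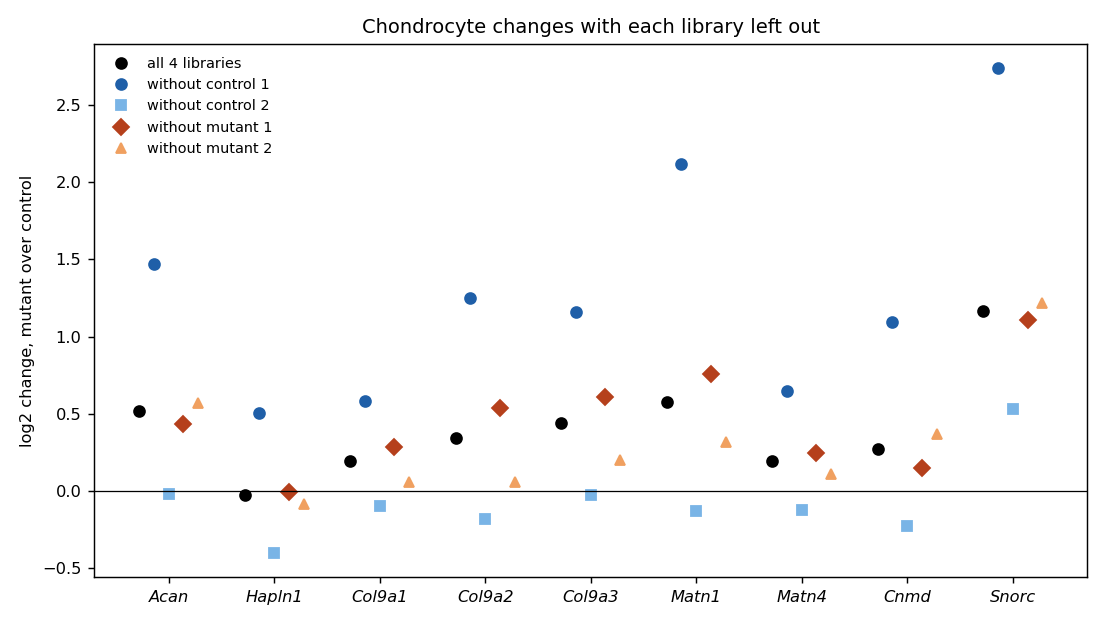
Fitted log2 change of each member in chondrocytes (vertical axis), with all 4 libraries and with each library left out. Without control 2 the values of 8 genes lie at or below 0 and Snorc at 0.53, and without control 1 all lie above 0, up to 2.74 for Snorc.

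Leaving out control 2 moved the change of Acan from 0.52 to -0.02, of Matn1 from 0.58 to -0.13 and of Col9a3 from 0.44 to -0.02, and 8 of the 9 members were then below 0. Leaving out control 1 instead gave 1.47 for Acan, 2.12 for Matn1 and 2.74 for Snorc. In control 2, 18 of 23 chondrocytes had Col2a1 in the band from 16 to 64, and 19 of 55 did in control 1. The same band held 9 of 15 chondrocytes of mutant 1 and 26 of 59 of mutant 2. Col2a1 itself was at 3874 CPM in control 2 and 9710.5, 6851 and 8845 CPM in the others. The part of this mix in the low values of control 2 was not tested in a fit, but the genes were also read within the bands.

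Within the band from 16 to 64, Hapln1 had 973.4 and 973.9 CPM in the controls, near the 1103 and 1020.3 CPM of the mutants. Control 2 was still the lowest library for 6 of the 9 genes in this band, with Matn1 at 333 CPM against 848 CPM in control 1 and 731 and 1091 CPM in the mutants. Snorc had 36.9 and 71.9 CPM in the controls but 226 and 295 CPM in the mutants, from 5, 11, 17 and 50 UMIs. Acan was at 465 and 386 CPM against 917 and 666 CPM. In the band of 64 or more, Snorc had 733 and 328 CPM in the controls but 1541 and 995 CPM in the mutants, and Acan at 1835 and 1149 CPM against 2275 and 1761 CPM, where Acan in mutant 2 lay below control 1. Snorc was thus higher in both mutants in both bands, which hold the same cells and libraries as the fit and were split after its values were seen. The upper band held 5 cells in control 2 and 6 in mutant 1.

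Set against Col2a1 in the same cells, Snorc had 4.99 and 2.77 UMIs per 100 Col2a1 UMIs in control chondrocytes and 11.4 and 7.62 in mutant chondrocytes. Acan had 13.9 and 12.7 against 21.7 and 14.2. Matn4 had 12.3 and 18.5 against 16.2 and 12.9, and Col9a1 had 23.3 and 37.3 against 30.3 and 25.5. Matn1 had 28.9 and 15.6 against 33.7 and 33.0, Col9a2 had 19.2 and 18.2 against 21.1 and 21.3, and Col9a3 had 37.0 and 41.8 against 47.0 and 45.0. By this ratio 5 of the 9 members, Snorc, Acan, Matn1, Col9a2 and Col9a3, were higher in both mutants, against 3.74% of the 5137 other genes tested in chondrocytes. That share is not a fair background. Col2a1 was lowest in control 2, which raises the ratio there for any gene that does not follow Col2a1. By CPM only 1 member, Snorc, was higher in both mutants, against 17.2% of the genes tested. Hapln1, Col9a1, Matn4 and Cnmd overlapped between the groups. All these ratios share the Col2a1 count of each library.

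In the Col2a1-intermediate cells both mutants lay below both controls for several genes, whose groups overlapped in chondrocytes. The intermediate class was tested after its values were seen. Hapln1 had 122 and 239.6 CPM in the controls but 25.2 and 117 CPM in the mutants, Matn4 at 363 and 295 CPM against 177 and 210.1 CPM, and Cnmd at 165 and 181 CPM against 97.8 and 104 CPM. Acan was at 97.3 and 129 CPM against 72.6 and 88.2 CPM, Col9a1 at 355 and 446 CPM against 205 and 293 CPM, and Matn1 at 22.4 and 33.2 CPM against 6.31 and 13.0 CPM. Both mutants lay below both controls for 5 of the 7 members tested in this class, Acan, Hapln1, Col9a1, Matn4 and Cnmd, against 11.7% of the 5980 genes tested. Matn1 was also lower in both but was not among those tested. Col2a1 was also lower in both mutants, at 710.1 and 781 CPM against 838 and 855 CPM, and the genes share these cells.

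None of these differences passed the test. Of the 5980 genes, edgeR called 0 (0%), with 238 at an unadjusted p under 0.05, and DESeq2 called 0. The log2 change was -1.29 ± 0.50 for Hapln1, -0.83 ± 0.26 for Matn4, -0.82 ± 0.27 for Cnmd, -0.72 ± 0.26 for Col9a1 and -0.51 ± 0.31 for Acan (SE, n = 2 against 2, edgeR adjusted p = 0.999 each). Hapln1 moved with single libraries, to -0.63 without mutant 1, which had 8 UMIs, and to -2.85 without mutant 2 (edgeR adjusted p = 0.000932). Without control 1 it was -1.73 (edgeR adjusted p = 6.54e-05). Matn4 passed only without control 2 (-0.97, edgeR adjusted p = 0.0296). Col9a2 at -0.10 ± 0.27 and Col9a3 at -0.12 ± 0.27 were near 0, and Matn1 and Snorc had too few counts to be tested.

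**Figure D5:**
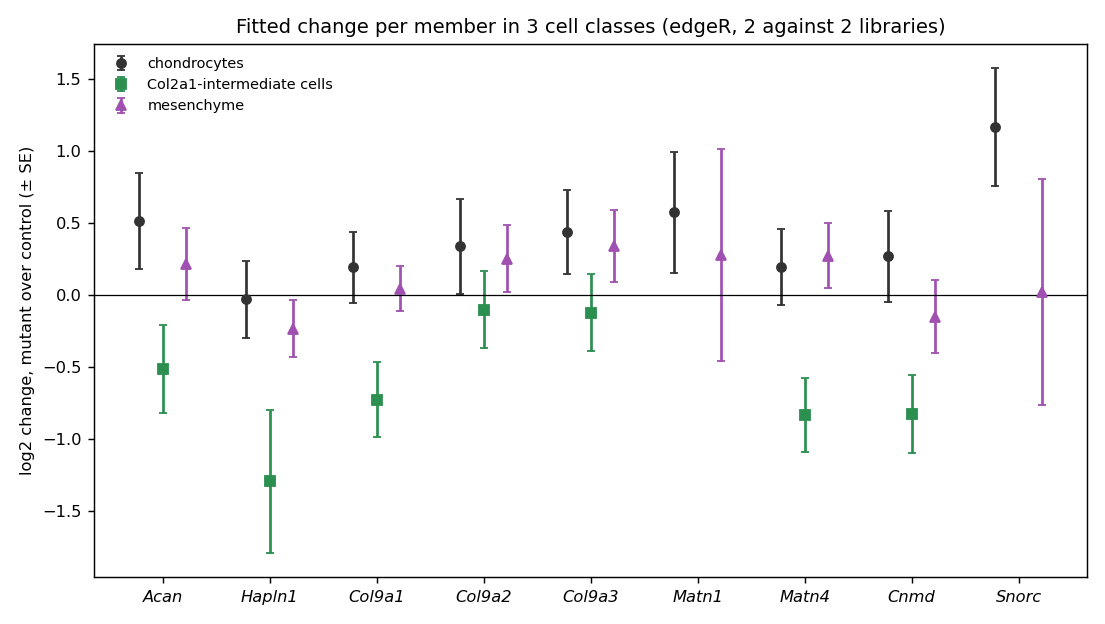
Fitted log2 change, mutant over control, with its standard error (vertical axis) for each member in chondrocytes, Col2a1-intermediate cells and mesenchyme. Chondrocyte points lie at or above 0 for all but Hapln1 at -0.03, intermediate points lie below 0 for the 7 genes tested there, and mesenchyme points lie between -0.23 and 0.34.

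In mesenchyme, the class with most cells, no member passed the test. The log2 changes lay between -0.23 ± 0.20 for Hapln1 and 0.34 ± 0.25 for Col9a3, with Col9a2 at 0.25 ± 0.23 and Matn4 at 0.27 ± 0.23 (SE, n = 2 against 2). Their edgeR adjusted p ran from 0.765 to 0.996, and the groups overlapped for all 9. Over all 15888 genes tested, edgeR called 0 (0%), with 1243 at an unadjusted p under 0.05, while DESeq2 called 58, no member among them. Both mutants were above both controls for 26% of these genes and below for 14.6%.

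In the osteoblast lineage 5 members could be tested and none passed, as was the case for all 10742 genes (0%, with 413 at an unadjusted p under 0.05 by edgeR and 1 called by DESeq2). Among these 5, Hapln1 was lower in both mutants, against 12.7% of the genes tested, and Col9a2 was higher in both, against 20.8%. Cnmd was also lower in both, but it had only 14 UMIs in all and was not among those tested. Hapln1 had 13.7 and 11.4 CPM in the controls but 6.47 and 10.5 CPM in the mutants, with a log2 change of -0.60 ± 0.37 (SE, edgeR adjusted p = 1.00). Over all cells of the nose, 0 of 18080 genes were called (0%, with 883 at an unadjusted p under 0.05 by edgeR, and 30 called by DESeq2), and the members lay between -0.23 for Hapln1 and 1.00 ± 0.78 for Snorc. In bulk sums of this kind, fewer chondrocytes and less RNA per chondrocyte cannot be told apart.

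Whether the change differed between chondrocytes and mesenchyme was tested as an interaction. Of 14582 genes 15 were called (0.103%), and none was a member. Snorc came nearest, at a difference of log2 changes of 1.12 ± 0.57 (SE, edgeR unadjusted p = 0.0510, adjusted p = 1). Epyc, a small proteoglycan of cartilage on the list of matrix partners, was among the 15, at 2.10 ± 0.48 (SE, edgeR adjusted p = 0.0203). It stood at 153 and 16.9 CPM in control chondrocytes and 370 and 160 CPM in mutant ones, and at 7.83 and 12.8 CPM against 3.80 and 8.49 CPM in mesenchyme. The chondrocyte value of control 2 rests on very few of the 168 Epyc UMIs in that class, and control 1 lay close to mutant 2. No gene was called in the interaction under the stricter gate, and 2 were called without control 2.

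Other genes of cartilage were read from lists chosen by function. Of 25 matrix partners 18 could be tested in chondrocytes and 0 passed, with a median log2 change of 0.15. Apart from Epyc (1.25 ± 0.50), the widest differences were Ecrg4 at -1.16 ± 0.44, with 205 and 84.6 CPM in controls against 30.8 and 89.3 CPM in mutants, and Scrg1 at 0.62 ± 0.40. A list for chondroitin sulfate synthesis and related steps held 27 gene names, of which 26 were in the count table. Of these 16 could be tested and 0 passed, with a median of 0.26. Chsy3, a chondroitin synthase, had 105 and 147 CPM in the controls but 316 and 257 CPM in the mutants (1.18 ± 0.31, SE, edgeR adjusted p = 0.55). Its groups did not overlap, and 17.2% of the genes tested in chondrocytes also had both mutants above both controls. Chst11, which sulfates the chains, was at 0.54 ± 0.32, and Pxylp1, a phosphatase of the linker, at 1.06 ± 0.57.

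Of 12 matrix proteases and their inhibitors 6 could be tested, of 21 chondrocyte regulators 8 and of 10 hypertrophy genes 3, and 0 passed in each list. The median log2 changes were -0.08, 0.31 and 0.04, against -0.01 over all genes tested. Adamts1 was at -0.57 ± 0.56, the parathyroid hormone receptor gene Pth1r at 0.92 ± 0.47, the hedgehog receptor gene Ptch1 at 0.57 ± 0.41 and Runx2 at -0.62 ± 0.30. Ptch1 was at 108 and 90.2 CPM in control chondrocytes and 262 and 89.3 CPM in mutant ones, so mutant 1 alone was high. The control and mutant values of each gene rest on the same few chondrocytes as those of the members.

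The genes whose pattern was most like the mean of the members, over 44 sums of a class in a library, were Col2a1, Susd5, Cytl1, Mia, Wwp2, Matn3, Col27a1, Fbln7, Col11a1 and Col11a2. Pearson r of log2(CPM + 1) ran from 0.95 for Col2a1 to 0.85 for Col11a2. Col2a1, Mia, Wwp2 and Col11a2 served as gate markers, so their likeness follows from the classes. Susd5 was at a mean of 259.5 CPM in chondrocytes and 0.796 CPM in mesenchyme, Cytl1 at 385 and 2.87 CPM, and the matrilin gene Matn3 at 228 and 0.808 CPM. Among the members, Col9a1 followed the mean most closely at 0.96 and Snorc least at 0.86.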

How the data were processed

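The matrices the authors deposited give unnormalized UMI counts for each gene in each barcode, from Chromium 3-prime libraries of dissociated, frozen nose cells, per the labels' protocols. The file headers name Cell Ranger 8.0.1, whereas the submitters' processing notes name Cell Ranger 4, Seurat 4.3.0 and the build mm10. Retained cells had at least 500 genes and at most 10% mitochondrial UMIs, and library depth was 20170229 to 35887490 UMIs. Scrublet in scanpy 1.11.5 marked 0 to 3 cells per library, so its automatic call had not worked and doublets were kept. An alternative removed the highest scores.

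For each class, the UMI counts of a library were added up, and the sums were compared with edgeR 4.0.16 under R 4.3.3 (quasi-likelihood, TMM, filterByExpr), with Benjamini-Hochberg adjustment over all genes tested at 0.05. Standard errors were taken from the log2 change and the F statistic. Classes without a test were described in CPM. Intervals are exact binomial (Clopper-Pearson) and cover counting error only. Alternatives were DESeq2 1.42.0, its size factors, no filter, a replicate block, a stricter gate, cells with at least 1000 genes and at most 5% mitochondrial UMIs, doublets removed, each library left out and, added after seeing the data, another Col2a1 limit in the osteoblast lineage or mesenchyme. In lists, the 3 tested genes with the widest change were candidates for naming. The members, lists and gates were chosen with earlier results of these data known. The fits were tested on simulated data. Promoter sequences come from RefSeq, where Col9a3 and Snorc were not matched.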

Additional observations from a re-analysis of the deposited data

How the results depend on the processing

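The sums rest on 15 to 59 chondrocytes per library, 2 libraries per group and cells near a Col2a1 threshold, so small changes cannot be seen, and leaving a library out gives an arm with a lone sample that is assumed to vary like the others. Across 38 member values, 245 of 261 values under settings other than a left-out library kept their direction and their side of the threshold. The counts of genes called, 0 with the design as stated in chondrocytes, osteoblast lineage, mesenchyme, all cells and intermediate cells, became 19, 67, 599, 10 and 12 with no filter on low counts. DESeq2 called 1 in the osteoblast lineage, 58 in mesenchyme and 30 over all cells. With the replicate block 21, 48, 1 and 1 were called in chondrocytes, osteoblast lineage, mesenchyme and intermediate cells. Deviations of same-numbered libraries correlated at 0.013 in chondrocytes, 0.044 in osteoblast lineage, 9.88e-05 in mesenchyme and -0.035 over all cells. The numbers were thus not taken as pairs, and intermediate cells were not checked for this. Beside Snorc and Matn1 in chondrocytes, the block changed no call of a member. The interaction's count of 15 became 0 under the stricter gate. With each library left out the counts ran from 0 to 13 in chondrocytes, 7 to 172 in osteoblast lineage (172 without control 1), 4 to 458 in mesenchyme (458 without control 1), 0 to 410 over all cells (410 without control 1), 9 to 76 in intermediate cells (76 without control 1) and 2 to 33 for the interaction, and 3217 to 4440 for the osteoblast lineage against mesenchyme. The difference in chondrocyte share ran from -0.639 to 0.267 percentage points. With each library left out, log2 changes that crossed 0 ran, in chondrocytes, from -0.018 to 1.47 for Acan, -0.40 to 0.51 for Hapln1, -0.10 to 0.58 for Col9a1, -0.18 to 1.25 for Col9a2, -0.025 to 1.16 for Col9a3, -0.13 to 2.12 for Matn1, -0.12 to 0.65 for Matn4 and -0.22 to 1.10 for Cnmd. In the osteoblast lineage they ran from -1.42 to 1.24 for Col9a1 and -0.20 to 1.12 for Matn4. In mesenchyme they ran from -0.048 to 0.50 for Acan, -0.089 to 0.21 for Col9a1, -0.070 to 0.72 for Col9a2, -0.66 to 1.99 for Matn1, -0.34 to 0.0044 for Cnmd and -1.15 to 1.06 for Snorc. In intermediate cells they ran from -0.27 to 0.13 for Col9a2 and -0.42 to 0.12 for Col9a3, and Col9a1 in osteoblast lineage against mesenchyme from -0.25 to 0.59. Other reversals were Hapln1 in chondrocytes (0.046) and Snorc in mesenchyme (-0.034) with the replicate block, Matn4 in chondrocytes with stricter cells (-0.021) and the stricter gate (-0.017), Snorc in mesenchyme with stricter cells (-0.17), Matn1 in mesenchyme (-0.0014) and Col9a1 in osteoblast lineage against mesenchyme (-0.043) with the stricter gate, and there also with no Col2a1 limit in mesenchyme (-0.39), and Col9a1 in mesenchyme with doublets removed (-0.016). The cause was not tested.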
